A study of Canis lupus familiaris with 18 samples.

Results

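The voltage-gated sodium channel subunits were followed as 9 genes in tumor tissue of dogs with high grade oligodendroglioma (HGO), a malignant brain tumor whose cells resemble the oligodendrocyte lineage. The genes were selected on their symbols, which name 6 pore-forming alpha subunits (SCN1A, SCN2A, SCN3A, SCN8A, SCN9A and SCN11A) and 3 beta subunits (SCN2B, SCN3B and SCN4B). SCN11A was in addition chosen by its variation between French bulldog libraries, so its levels across French bulldogs and against the other breeds are given as a description without a test. The 9 genes are 9 of 29993 rows in the count table, and all 9 passed the filter on low counts. RNASeq was performed on RNA from formalin-fixed, paraffin-embedded tumors of the prosencephalon that had been removed at surgery, with 1 library for each of 18 sample labels. The libraries came from 11 French bulldogs and from 7 dogs that served as the comparison group, 4 of them boxers and 3 Boston terriers, and the comparison was made to find whether HGO gene expression differs between breeds. No treatment, time point or genotype is given on the labels, and no normal brain was in the set. The comparison libraries are numbered across both breeds, so that the boxers are 1, 3, 4 and 5 and the Boston terriers are 2, 6 and 7.

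An alpha subunit of a voltage-gated sodium channel forms the pore, opens when the membrane depolarizes and carries the rising phase of the action potential. Beta subunits are smaller membrane proteins with an immunoglobulin fold that alter the gating and placement of the pore and can act in cell adhesion. SCN1A, SCN2A, SCN3A and SCN8A encode the main alpha subunits of the central nervous system, whereas SCN9A and SCN11A are best known from peripheral sensory neurons. Oligodendrocyte progenitor cells are also known to carry sodium currents.

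Totals of 8212452 to 13169880 counts were assigned to genes per library. Levels are given as normalized CPM, which are counts scaled to a common library size after TMM normalization, and a floor of 3 counts corresponded to 0.223 to 0.351 normalized CPM, covering counting error only. French bulldog 6 stood apart: OLIG2, NKX2-2 and BCAN of the 10 oligodendrocyte progenitor markers had 0 counts there, and the summed macrophage and microglia markers reached 6000 normalized CPM (5999.86) against 60.7 to 361 in the other 10 French bulldogs and 79.7 to 191 in the comparison group. Not every marker of that sum was raised: CX3CR1 had 24 counts against 118 to 752 in the other 17 libraries. P2RY12 had 66 counts, within their 36 to 370. CD163 had 27819 counts against 22 to 521. The neuron markers summed to 6.25 normalized CPM in French bulldog 6, with GAD1 and NEFM at 0 counts, against 74.8 to 1555 in the other French bulldogs and 114 to 1291 in the comparison group. French bulldogs 2 and 8 carry the same case number in their library names. Their profiles were more alike than those of any other pair of French bulldog libraries (r = 0.981 on log2 CPM across genes, at most 0.941 for another such pair). Pairs with a comparison library were not examined. French bulldogs 2 and 8 differed by more than counting noise, which separately prepared pieces of 1 tumor could also do. The study lists them as separate dogs, and gives both the same age, sex and tumor site. Whether they come from 1 dog or from 2 cannot be told apart here. They were entered as 2 libraries, with their sum as an alternative. The sample numbers in the library names of comparison libraries 5 to 7 repeat those of French bulldogs 1 to 3, so these were numbered separately, and those of comparison libraries 1 to 4 are higher than either. Whether these series are batches is not stated, all French bulldogs belong to 1 of them, and 0 subunits were called against either comparison series alone.

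SCN11A, which encodes the Nav1.9 channel of peripheral sensory neurons, ran from undetected to rank 35 of all genes by count within French bulldogs. Its level was 0 normalized CPM at the lowest, 77.5 at the median and 1013 at the highest of the 11 French bulldogs, and the 3 highest libraries held 86.9% of the sum. French bulldogs 3, 4 and 5 had 479.9, 847 and 1013 normalized CPM. In these libraries SCN11A ranked 87th, 46th and 35th among all genes by count, with 4914, 9089 and 8646 counts. French bulldogs 1, 7 and 10 formed an intermediate set at 126, 115 and 77.5 normalized CPM, and French bulldogs 9 and 11 lay lower at 9.71 and 23.9. The lowest 3 were French bulldog 6 with 0 counts, French bulldog 2 with 2 counts and French bulldog 8 with 11 counts, that is the library that stood apart and the pair with a shared case number.

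In boxers 1, 3, 4 and 5, SCN11A was at 2.70, 36.9, 5.05 and 13.2 normalized CPM. In Boston terriers 2, 6 and 7 it was at 1.32, 1.51 and 0.248 normalized CPM, the last from 3 counts. Of the 11 French bulldogs, 6 lay above every comparison library, 2 lay below every comparison library, and the groups overlapped. Within the comparison group the lowest library was at the floor of 3 counts and the highest, boxer 3, was far above the next. The fitted log2 fold change of French bulldogs over the comparison group was 4.81, with 4.27 to 5.94 when each library was left out in turn. It was 2.99 with limma-voom, 4.08 against boxers alone and 7.88 against Boston terriers alone. On the edgeR scale the dispersion of SCN11A, a measure of variation between libraries beyond counting error, was 2.74 and lay at percentile 99.8 of the genes tested.

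**Figure D1:**
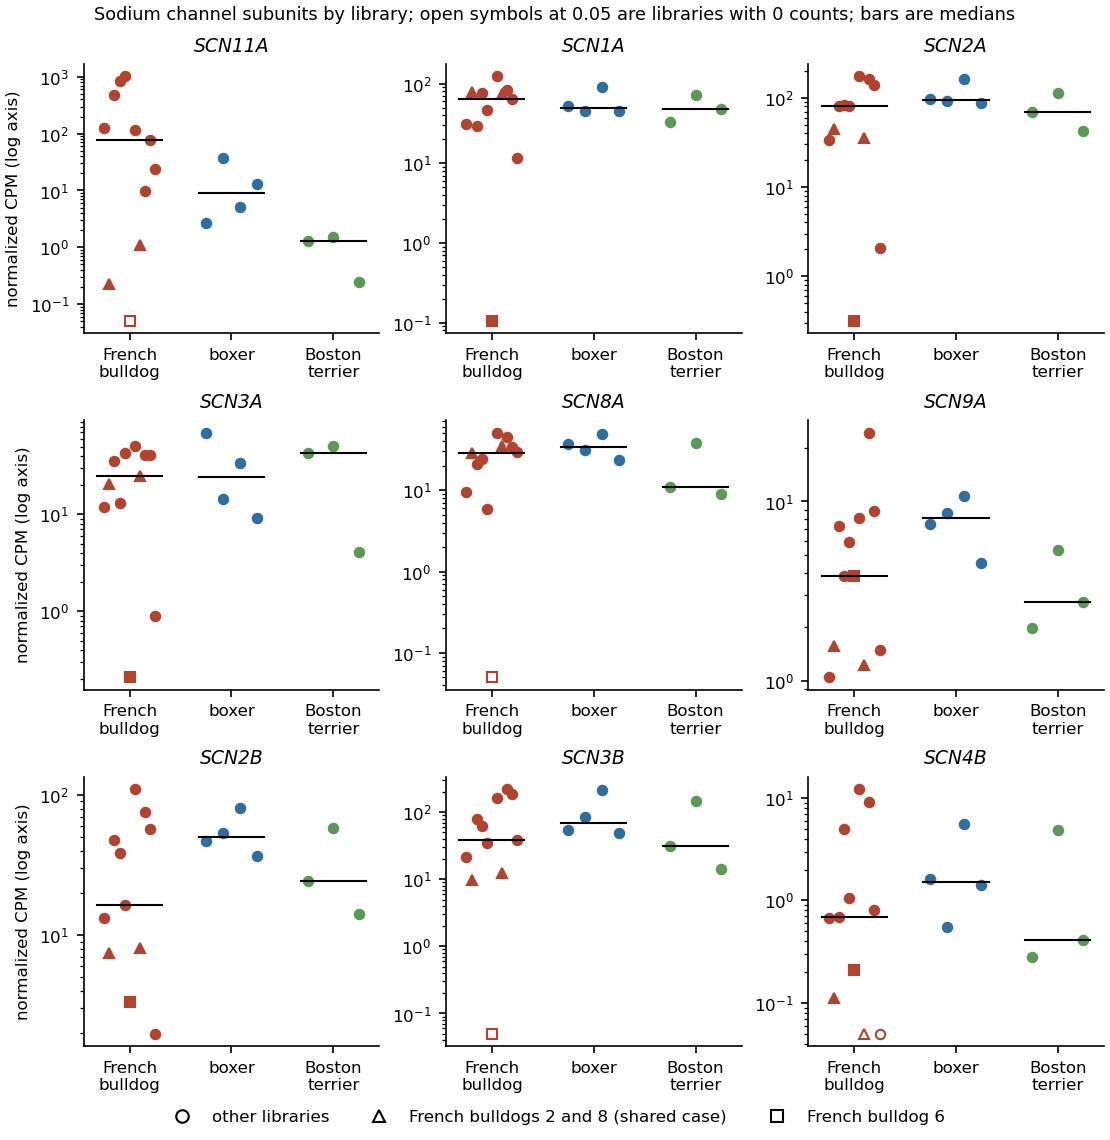
Normalized CPM (log axis) of the 9 sodium channel subunits in each of 18 libraries by breed, with a bar at the median of a breed and open symbols at 0.05 for libraries with 0 counts. SCN11A ran from 0 to 1013 in French bulldogs, and the square of French bulldog 6 is the lowest symbol for SCN11A, SCN1A, SCN2A, SCN3A, SCN8A and SCN3B.

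Peripheral sensory neuron markers were summed beside SCN11A, because that gene is best known from those cells. Of 11 listed markers 9 were found in the table and 4 passed the filter on low counts. The sum ran from 6.14 to 208 normalized CPM in the other French bulldogs, was 5.94 in French bulldog 6, and ran from 16.1 to 36.9 in the comparison group. French bulldogs 3, 4 and 5, with the highest SCN11A, had sums of 20.3, 17.9 and 16.4, which lie within or near the comparison range. The highest sum was in French bulldog 11, where SCN11A was 23.9, and most of it came from P2RX3, an ATP-gated channel of sensory neurons, with 1914 counts. The 17 libraries other than French bulldog 6 had 14 to 514 counts of PRPH, 26 to 177 of RET, 0 to 199 of GFRA2, 0 to 31 of TAC1 and 0 to 27 of TRPV1. CALCA had at most 3 counts in any library, and ISL1 had 0 counts in those 17. The part of sensory neuron tissue in the SCN11A level was not tested further.

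SCN1A, which encodes Nav1.1, was at 0.104 normalized CPM at the lowest, 64.9 at the median and 123 at the highest of French bulldogs. The comparison group ran from 32.9 over a median of 48.8 to 89.9 normalized CPM. The lowest French bulldog was library 6 with 1 count, the next was library 11 at 11.7, and the groups overlapped. SCN2A, which encodes Nav1.2 of axon initial segments, ran from 0.312 over a median of 80.9 to 173 normalized CPM in French bulldogs and from 42.6 over 92.5 to 164 in the comparison group. French bulldogs 6 and 11, at 0.312 and 2.08 normalized CPM, were far below the other 16 libraries, which had at least 34.1.

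SCN3A, which encodes Nav1.3 and is most active in the developing brain, ran from 0.208 over a median of 24.8 to 50.4 normalized CPM in French bulldogs. In the comparison group it ran from 4.14 over 33.9 to 69.5, so that no French bulldog lay above every comparison library. French bulldogs 6 and 11 were again the lowest, at 0.208 and 0.892. SCN8A, which encodes Nav1.6 of nodes of Ranvier, ran from 0 over a median of 28.3 to 50.8 normalized CPM in French bulldogs and from 8.86 over 31.2 to 49.3 in the comparison group. French bulldog 11 did not stand apart for SCN8A, at 29.5 normalized CPM, whereas it was the lowest of the 17 libraries without French bulldog 6 for SCN1A, SCN2A, SCN3A and SCN2B and for the summed neuron markers (74.8). SCN9A, which encodes Nav1.7, had a median of 46.5 counts per library. It ran from 1.04 over 3.85 to 24.2 normalized CPM in French bulldogs and from 1.98 over 5.35 to 10.7 in the comparison group. French bulldog 6 was in the middle of its group for SCN9A, with 37 counts and 3.85 normalized CPM, while SCN2B had 32 counts and the other 7 subunits had 0 to 3 counts in that library.

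Among the beta subunits, SCN2B, whose product is bound to the alpha subunit by a disulfide bond, ran from 1.98 over a median of 16.5 to 110.5 normalized CPM in French bulldogs. The comparison group ran from 14.1 over 46.8 to 80.2 normalized CPM. French bulldogs 1, 2, 6, 8 and 11 were below every comparison library and French bulldog 7 was above all of them. SCN3B, whose product is held without such a bond, ran from 0 over 38.5 to 223 normalized CPM in French bulldogs and from 14.5 over 54.7 to 216 in the comparison group. French bulldogs 7, 9 and 10 were highest, at 161, 223 and 189.5, and these libraries also had the highest summed neuron markers of French bulldogs, at 1425, 1555 and 997 normalized CPM. SCN4B, which promotes resurgent current in some neurons, was near the detection floor, with a median of 8.5 counts over the 18 libraries. It ran from 0 over 0.684 to 12.2 normalized CPM in French bulldogs and from 0.282 over 1.40 to 5.63 in the comparison group, and 5 libraries had at most 3 counts.

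For the 8 subunits other than SCN11A, no difference between the breeds was larger than the spread between libraries. By the quasi-likelihood F test of edgeR, adjusted by the Benjamini-Hochberg method across 16495 genes, 0 of the 8 had an adjusted p-value under 0.05, 0 had an unadjusted p-value under 0.05, and 0 were called by the DESeq2 Wald test or by limma-voom. The background was low, since 1 of the 16495 genes was called (0.00606%), with 1744 genes at an unadjusted p-value under 0.05. In French bulldogs 3 of the 8 subunits had a higher and 5 a lower estimate, with a median log2 fold change of -0.15 against 0.04 over all genes tested. In bulk tissue, fewer cells of a type and less RNA per cell cannot be told apart.

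The largest difference among the alpha subunits tested was in SCN2A, at -0.33 on the log2 scale (SE, the standard error, 0.67, adjusted p = 0.902 from edgeR), and its 95% interval allowed a fold of 0.300 to 2.12. SCN3A was almost the same at -0.32 (SE 0.69, adjusted p = 0.908 from edgeR), with an interval of 0.293 to 2.19 fold. The estimates were closer to 0 for SCN8A at -0.14, SCN9A at 0.05 and SCN1A at 0.03, and the interval for SCN1A was 0.437 to 2.37 fold. Of the beta subunits, SCN2B was at -0.37 (SE 0.64, adjusted p = 0.877 from edgeR) with 0.307 to 1.95 fold allowed. SCN3B was at -0.17 with 0.277 to 2.86 fold allowed. The interval was widest for SCN4B, at 0.38 (SE 1.00, adjusted p = 0.925 from edgeR) with 0.305 to 5.52 fold allowed. The intervals of 7 of the 8 genes, all but SCN2B, included a 2-fold difference in either direction. Without French bulldog 6 the interval for SCN1A narrowed to 0.688 to 1.88 fold and that for SCN8A to 0.573 to 1.82 fold, and 5 of the 8 estimates were then above 0 in place of 3.

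**Figure D2:**
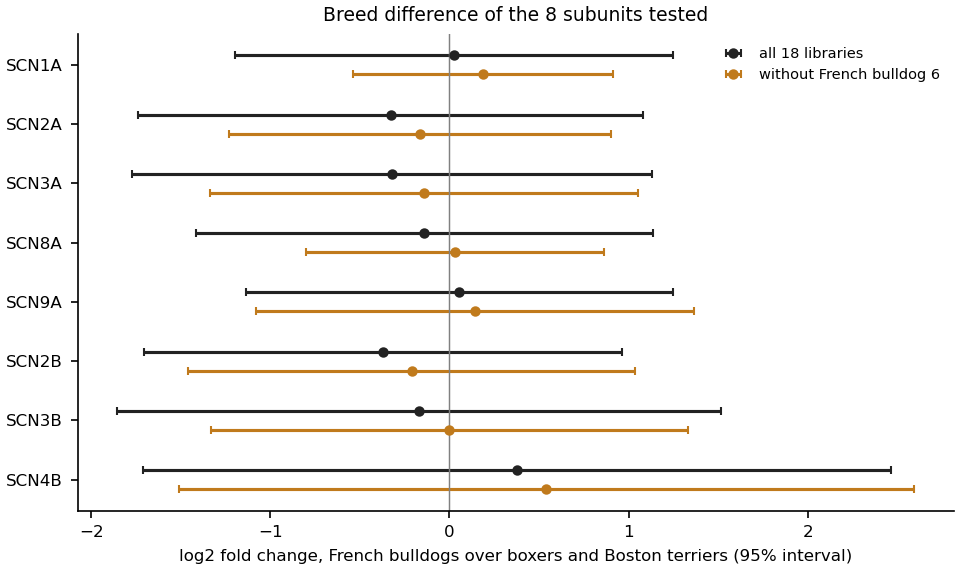
Log2 fold change of French bulldogs over boxers and Boston terriers for 8 sodium channel subunits, with 95% intervals from the edgeR model, for all 18 libraries (black) and without French bulldog 6 (orange). Every interval includes 0, from -1.71 to 2.46 for SCN4B with all libraries.

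Boxers were compared with Boston terriers in a fit with the 3 breeds as separate groups. Of the 9 subunits 0 were called and 0 had an unadjusted p-value under 0.05 in edgeR, and DESeq2 called 0, beside 0 of 17934 genes (0%) by edgeR with 381 at an unadjusted p-value under 0.05. The levels of SCN11A did not overlap, with 2.70 to 36.9 normalized CPM in the 4 boxers and 0.248 to 1.51 in the 3 Boston terriers. The share of all genes that separate these 4 from these 3 libraries was not counted, so nothing is read from it. The log2 fold change of boxers over Boston terriers was 3.81 for SCN11A (SE 2.31, adjusted p = 1 from edgeR), with 0.484 to 407 fold allowed and a dispersion of 2.51, which this fit estimated with the French bulldogs. With each comparison library left out in turn it was 2.76 to 4.20, the lowest without boxer 3. The other 8 ranged from -0.03 for SCN3A to 1.22 for SCN9A, 7 of them with a positive sign. Several signs depended on 1 library. Without boxer 4, SCN1A, SCN3A, SCN3B and SCN4B were at -0.13, -0.083, -0.047 and -0.66, while SCN2A, SCN8A, SCN9A and SCN2B stayed positive. With the 7 comparison libraries fitted alone, so that French bulldogs did not enter the estimate of the spread, 2 of the 9 had an unadjusted p-value under 0.05 and 0 were called, beside 1036 and 0 of 16633 genes. These were SCN11A at 3.81 (SE 1.02, p = 0.00471, adjusted p = 0.795 from edgeR), with 2.84 to 69.1 fold allowed, and SCN9A at 1.20 (SE 0.46, p = 0.0270, adjusted p = 0.795 from edgeR). In the DESeq2 fit of all 18 libraries SCN11A had an unadjusted p of 0.0430 and an adjusted p of 1. Both fits of all 18 libraries took its spread in part from French bulldogs. Variation between those libraries was the reason for its choice, so its p-values from these fits are only a description.

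The level of most subunits followed the content of neuron markers in the tissue. A neuron score was computed by averaging the z-scores of the 10 neuron markers found of 12 listed, on log2 CPM, and each subunit was correlated with it over the 17 libraries without French bulldog 6. SCN2B was closest to the score, with Spearman's rho of 0.96 and Pearson's r of 0.92 (permutation test, two-sided, adjusted p = 0.00021 and 0.000157). SCN2A had rho of 0.94 and r of 0.77 (permutation test, adjusted p = 0.00021 and 0.000157), and SCN3B had rho of 0.91 and r of 0.93 (permutation test, adjusted p = 0.00021 and 0.000157). The unadjusted p of these 3 was 1e-05, the smallest that 100000 permutations can give. The adjustment covered 63 relations, those of 9 subunits with 7 marker lists. The same sign was seen for SCN4B with rho of 0.85, SCN9A with rho of 0.83 and SCN8A with rho of 0.69 (permutation test, adjusted p = 0.00063, 0.00144 and 0.0178). Their r was 0.84, 0.83 and 0.61 (permutation test, adjusted p = 0.000504, 0.000525 and 0.0400). A positive rho of at least 0.605, the size of the smallest relation that passed, was seen for 10.4% of the 16476 other genes that passed the filter and are not neuron markers, whose median rho was -0.029. The median of the 8 subunits other than SCN11A was 0.84.

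SCN1A and SCN3A were nearer to the threshold, with rho of 0.58 and 0.57 (permutation test, adjusted p = 0.0589 and 0.0633), and with r of 0.60 and 0.62 (permutation test, adjusted p = 0.0400 and 0.0284). Without the 2 libraries farthest from the median of the score, r was 0.50 for SCN1A and 0.37 for SCN3A and no longer passed (permutation test, adjusted p = 0.156 and 0.363). The calls of both genes turned with the setting. SCN1A passed by rho with French bulldogs 2 and 8 summed, at 0.69 (permutation test, adjusted p = 0.0218, with r of 0.68 and of 0.63 without the 2 farthest libraries), and SCN3A passed with DESeq2 size factors, at 0.62 (permutation test, adjusted p = 0.0382). Both passed with all 18 libraries, and without French bulldog 11, a choice made after the data were seen, neither passed by either coefficient. Without the 2 farthest libraries r was 0.95 for SCN2B, 0.94 for SCN2A, 0.97 for SCN3B, 0.83 for both SCN9A and SCN4B, and 0.64 for SCN8A, which no longer passed (permutation test, adjusted p = 0.0531). SCN11A had rho of 0.26 and r of 0.26, given as a description because its spread was the reason for its choice, and a difference from the coefficients of the other subunits was not tested. Its 3 highest libraries, French bulldogs 5, 4 and 3, had summed neuron markers of 184, 620 and 451 normalized CPM, in the middle of the range of 74.8 to 1555.

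Within the 10 other French bulldogs, the relation to the neuron score gave rho of 0.96 for SCN2B, 0.95 for SCN2A, 0.84 for SCN3B, 0.88 for SCN4B and 0.85 for SCN9A (permutation test, adjusted p = 0.00252, 0.00315, 0.0392, 0.0283 and 0.0372). Within the 7 comparison dogs, rho was 1 for SCN2B and SCN3B (exact permutation test, adjusted p = 0.0125 for each) and 0.96 for SCN2A and SCN8A (exact permutation test, adjusted p = 0.0438 for each). By Pearson's r, SCN2B, SCN2A and SCN3B had 0.95, 0.79 and 0.90 in French bulldogs (permutation test, adjusted p = 0.00084, 0.00084 and 0.0142) and 0.95, 0.96 and 0.99 in the comparison group (exact permutation test, adjusted p = 0.00625, 0.0125 and 0.00625). These 3 genes passed the threshold in both groups separately by both coefficients. SCN8A passed it by rho in the comparison group but not by r, which was 0.88 (exact permutation test, adjusted p = 0.0844), and by neither in French bulldogs, where rho and r were 0.47 (permutation test, adjusted p = 0.507 and 0.470), and the difference between groups was not tested. For SCN11A, rho was 0.21 in French bulldogs, given without a test. It was 0.54 and r was 0.46 among comparison dogs (exact permutation test, adjusted p = 0.512 and 0.563).

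**Figure D3:**
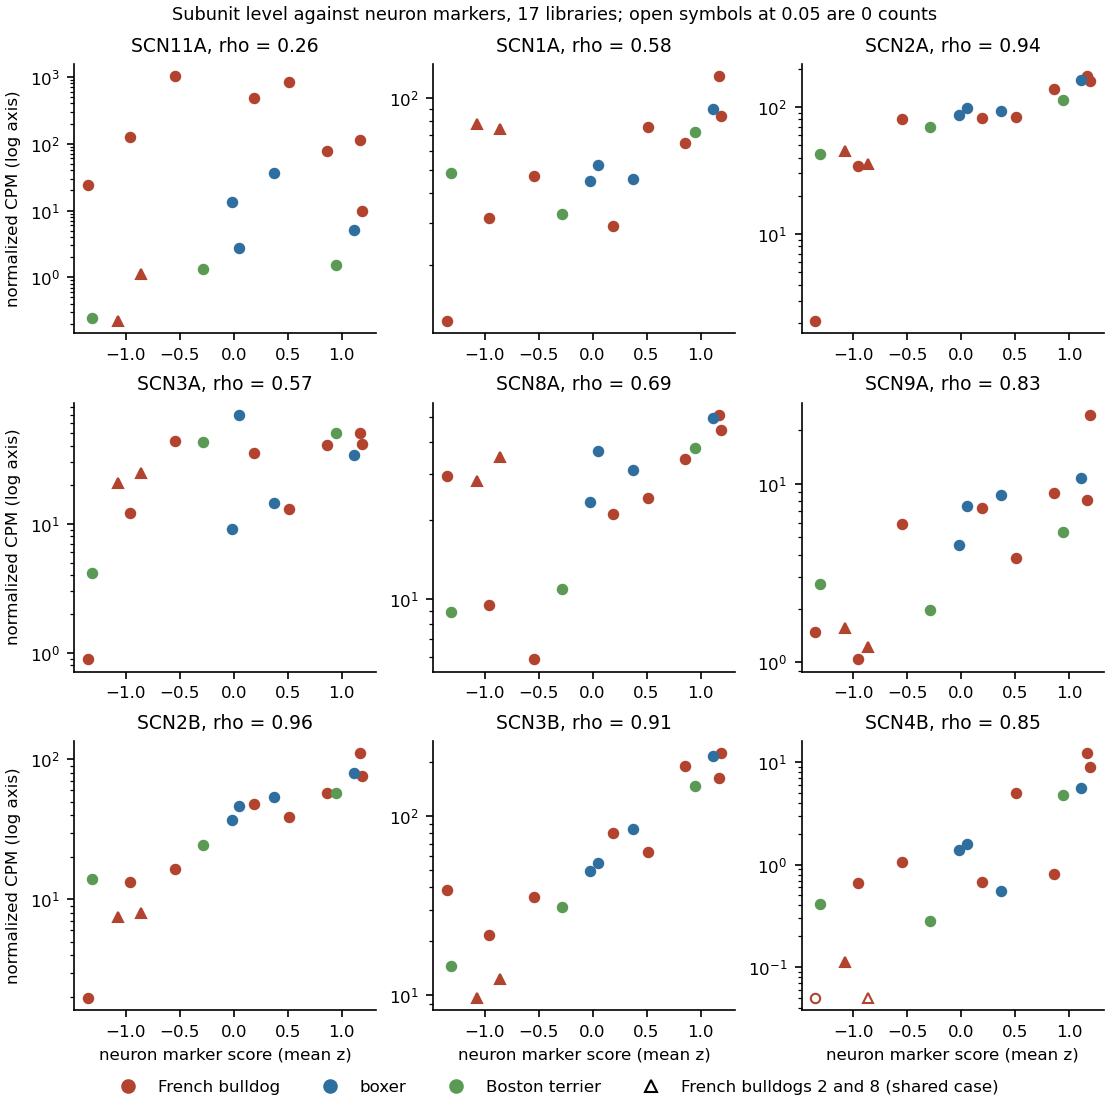
Normalized CPM (log axis) of each subunit against the neuron marker score (mean z-score) in 17 libraries colored by breed, with French bulldogs 2 and 8 as triangles and open symbols at 0.05 for 0 counts. SCN2B, SCN2A and SCN3B rise along the score in all 3 breeds, with rho of 0.96, 0.94 and 0.91, while SCN11A is scattered, with rho of 0.26.

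The other marker lists had fewer relations. Of the 63 relations 16 had an adjusted Spearman p-value under 0.05 and 14 an adjusted Pearson p-value under 0.05, 6 and 8 of them with the neuron score. At the same size of rho, 10.3% of the other genes were positively related to the astrocyte score, and 7.75%, 4.76% and 2.94% negatively to the proliferation, progenitor and endothelium scores. For each of the latter 2 scores 1 of 9 subunits passed, the smallest count above 0, so that nothing is read from it against these shares. The smallest relation that passed by r had a size of 0.596. At that size 10.7% and 12.5% of the other genes were positively related by r to the neuron and astrocyte scores. The share negatively related to the proliferation score was 8.95%. The astrocyte score was related to SCN3B with rho of 0.86, SCN2B with 0.82, SCN9A with 0.77 and SCN2A with 0.74 (permutation test, adjusted p = 0.00063, 0.00126, 0.00378 and 0.00735). The corresponding r was 0.88, 0.69, 0.74 and 0.44 (permutation test, adjusted p = 0.000157, 0.0163, 0.00576 and 0.202), so that SCN2A did not pass by r. The proliferation score was related with a negative sign to the same 4 genes, from rho of -0.73 for SCN3B to -0.62 for SCN2A (permutation test, adjusted p = 0.00825 and 0.0375). By r, SCN3B at -0.74 and SCN9A at -0.67 passed (permutation test, adjusted p = 0.00772 and 0.0221), whereas SCN2B at -0.47 and SCN2A at -0.19 did not (permutation test, adjusted p = 0.169 and 0.690). SCN3B was negatively related to the oligodendrocyte progenitor score, with rho of -0.64 and r of -0.56 (permutation test, adjusted p = 0.0302 and 0.0595). SCN1A was negatively related to the endothelium score, with rho of -0.61 and r of -0.58 (permutation test, adjusted p = 0.0451 and 0.0584). Both calls were lost with French bulldogs 2 and 8 summed (permutation test, adjusted p of rho = 0.0923 for SCN3B and 0.0524 for SCN1A), with DESeq2 size factors (0.0517 for each) and with all 18 libraries (0.296 and 0.185), and that of SCN2A to the proliferation score was lost with the sum (0.0739). Without French bulldog 11, in contrast, 4 subunits in place of 1 passed with the progenitor score by rho and 5 in place of 0 by r, all with a negative sign. The share of all genes was not computed for that setting, so nothing is read from these counts. For SCN11A rho ran from -0.49 with the progenitor score to 0.31 with the endothelium score, as a description. Without the 2 libraries farthest from the median of each score, 6 of the 63 relations passed by r, those of SCN2A, SCN9A, SCN2B, SCN3B and SCN4B to the neuron score and that of SCN3B to the astrocyte score. Within French bulldogs 1 relation to the astrocyte score and 1 to the proliferation score passed by rho, and within the comparison group 0 did. Over the 17 libraries 0 relations to the mature oligodendrocyte or the macrophage and microglia score passed by either coefficient. With all 18 libraries 1 and 4 passed by r and 0 by rho, namely SCN3B with the mature oligodendrocyte score at 0.78, and SCN1A, SCN2A, SCN3A and SCN8A with the macrophage and microglia score at -0.71 to -0.84 (permutation test, adjusted p from 0.00515 to 0.0361). The only library added there was French bulldog 6, so these calls depended on 1 library. It had 6000 normalized CPM of the macrophage and microglia markers and 0 to 3 counts of these 4 subunits.

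The subunits other than SCN11A also varied together. All 28 pairs among these 8 genes had a positive rho, from 0.38 to 0.96 with a median of 0.63, and 19 of them passed an adjusted Spearman p-value of 0.05 over the 36 pairs (17 by Pearson's r). Among all pairs of the other genes that passed the filter, 49.9% had a positive rho and 4.79% a positive rho of at least 0.544, the size of the smallest pair that passed. A positive r of at least 0.554, the size of the smallest pair that passed by r, was seen for 5.5%. The closest pair was SCN2A with SCN2B, at rho of 0.96 and r of 0.91 (permutation test, adjusted p = 0.00018 and 0.00036), followed by SCN2B with SCN3B, at rho of 0.92 and r of 0.79 (permutation test, adjusted p = 0.00018 and 0.00078). Without French bulldog 11 the number was 14. In the 8 pairs with SCN11A, rho ran from -0.23 with SCN1A to 0.36 with SCN4B, as a description. Since the neuron score was shared by most of the 8 genes, their pairs are not independent of the relation to that score.

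**Figure D4:**
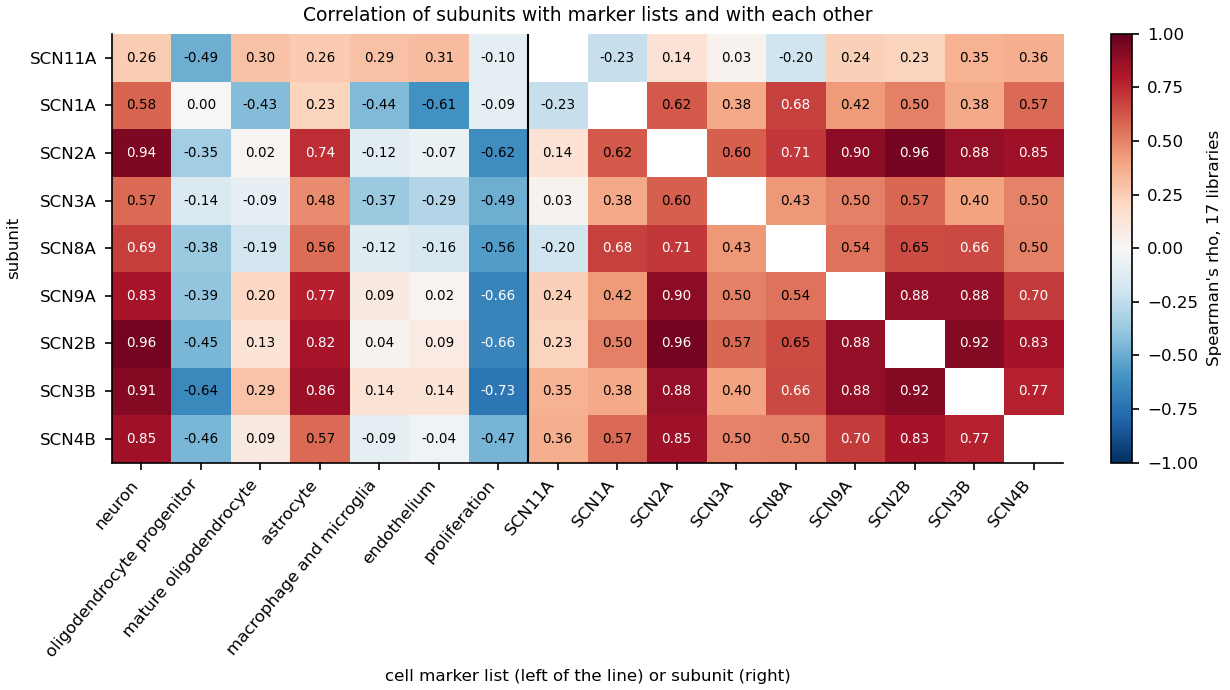
Spearman's rho over 17 libraries of each subunit (rows) with 7 cell marker lists (left of the line) and with the other subunits (right of the line), on a color scale from -1 to 1. The neuron column runs from 0.57 to 0.96 for the 8 subunits other than SCN11A, and the SCN11A row runs from -0.49 to 0.36.

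Genes whose pattern was most like that of a subunit were ranked by Spearman's rho on log2 CPM over the same 17 libraries among 11584 genes with a symbol, and no p-value is given because the genes were picked by rank. For SCN11A these were AGPAT1 at 0.86, BTBD3 at 0.80, GLO1 at 0.79, CTSA at 0.79 and MAT2B at 0.78. With all 18 libraries, AGPAT1, BTBD3 and GLO1 were again the first 3. The range of AGPAT1, an acyltransferase of phospholipid synthesis, was far narrower than that of SCN11A, from 13.2 to 44.9 normalized CPM. Among the most alike genes of the other alpha subunits were SYT12 at 0.92 and ADAM22 at 0.87 for SCN1A, COL25A1 at 0.96 for SCN2A, and CACNG5 and SYCP2L at 0.78 each for SCN3A. For SCN8A they were DLGAP3 at 0.96 and PNMA2 at 0.94, and for SCN9A they were CLDN10 and PCLO at 0.93 each. Among those of the beta subunits were CNTNAP5 and FBXL16 at 0.99 each for SCN2B, SCRN1 at 0.98 for SCN3B, and KCNJ6 and AGAP3 at 0.92 each for SCN4B. DLGAP3 encodes a postsynaptic and PCLO a presynaptic scaffold protein.

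By gene order in the RefSeq annotation of the UU_Cfam_GSD_1.0 dog assembly, a different one from that of the counts, SCN11A lies on chromosome 23 with SCN10A on one side and WDR48 on the other. SCN10A, the sensory neuron channel Nav1.8, had 2 counts in French bulldog 3 and 0 counts in the other 17 libraries. WDR48, a cofactor of deubiquitinating enzymes, varied little, from 37.1 to 59.5 normalized CPM. A long non-coding RNA, LOC111091870, overlaps SCN11A in that annotation and had no row by that symbol, and 2 further neighbors, LOC100687253 and LOC119865497, had none either. Whether the counting used strand is not given in the sources used here, so reads of such an overlapping gene could not be told from SCN11A reads. SCN1A, SCN2A, SCN3A and SCN9A share chromosome 36 and SCN2B, SCN3B and SCN4B share chromosome 5 in the same annotation.

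The alpha subunits are held at the axon initial segment and at nodes of Ranvier by ankyrin, spectrin and adhesion molecules, and 28 genes of this complex and of related channels were examined. Of these, 25 were in the table, 24 passed the filter, and 0 were called between French bulldogs and the comparison group by edgeR. The sign was positive for 8 and negative for 16, with a median log2 fold change of -0.20 against 0.04 over all genes tested, and 1 gene had an unadjusted p-value under 0.05. That gene was FGF11, an intracellular factor that binds the tail of alpha subunits, at -0.72 (SE 0.34, p = 0.0471, adjusted p = 0.469 from edgeR). Its value rested in part on Boston terrier 7, which had 30.8 normalized CPM against 3.51 to 13.0 in the other comparison libraries, and without that library it was -0.30 (adjusted p = 0.737 from edgeR) and not under an unadjusted p of 0.05. The next 4 by p-value were NEDD4L, a ubiquitin ligase that acts on sodium channels, at 0.45, the adhesion molecule gene NRCAM at -0.78, the node spectrin gene SPTBN4 at -0.93 and the sodium leak channel gene NALCN at -0.85, with adjusted p-values of 0.580, 0.582, 0.587 and 0.643 from edgeR.

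NRCAM, which helps to cluster sodium channels at nodes, ran from 1.87 over a median of 302 to 652 normalized CPM in French bulldogs and from 469 over 553 to 685 in the comparison group. French bulldogs 2 and 8, at 626 and 652, lay within the comparison range, and the other 9 French bulldogs, with at most 346, lay below every comparison library. The share of all genes that separate as far was not counted, so nothing is read from this pattern. The difference was not called over the 18 libraries (log2 fold change -0.78, SE 0.50, adjusted p = 0.582 from edgeR), nor with any library left out in turn, where the adjusted p ran from 0.384 to 0.709. With French bulldogs 2 and 8 summed as 1 dog and French bulldog 6 left out it was 0.434 in edgeR. It was under 0.05 in 1 of the settings tried, at 0.0280 in edgeR without French bulldogs 2, 6 and 8, which was chosen after the values were seen and leaves out both libraries that overlapped with the comparison range.

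**Figure D5:**
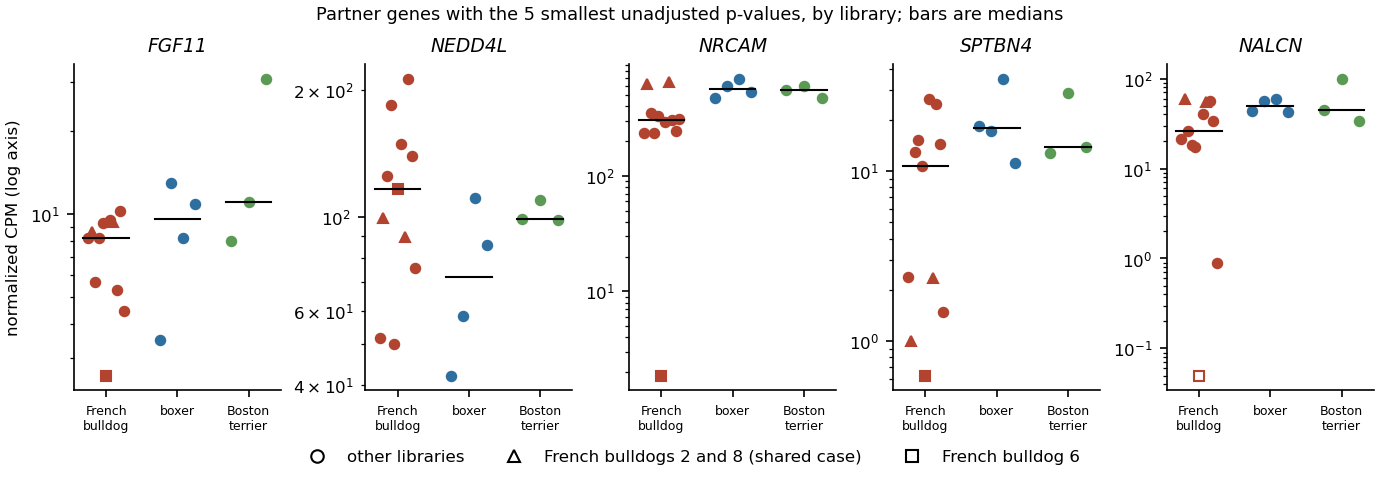
Normalized CPM (log axis) by breed in 18 libraries for the 5 partner genes with the smallest unadjusted p-values, with a bar at the median and open symbols at 0.05 for 0 counts. For NRCAM, French bulldogs 2 and 8 (triangles) lie among the comparison libraries and the other 9 French bulldogs lie below them.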

How the data were processed

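The authors trimmed paired-end reads with Trimmomatic 0.33, mapped them with HISAT2 2.1.0 to the canFam6 dog genome, and deposited raw featureCounts counts per gene, not normalized. Strand and multi-mapping settings are not given in the sources used here. Groups were taken from the breed labels, and depth was 8212452 to 13169880 counts per library.

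Breeds were compared mainly with the quasi-likelihood F test of edgeR 4.0.16 in R 4.3.3 (TMM, filterByExpr, robust, two-sided) with Benjamini-Hochberg adjustment over all genes tested and a threshold of 0.05. DESeq2 1.42.0, limma-voom (limma 3.58.1), other scalings, filters and sets of libraries were alternatives. Correlations used log2 CPM with a prior count of 2 and 100000 permutations, exact with 7 libraries. The fits were tested on simulated data. Figures were made with Python 3.11.15 and matplotlib 3.10.9.

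The 9 members, the 28 partner genes and the 8 marker lists were chosen with earlier results of these data known. Named genes were the members, the 5 partners with the smallest p-value, the 5 genes most like SCN11A and the 2 most like each other subunit, and the 3 annotated neighbors on each side of SCN11A. The sensory neuron markers and the markers at 0 in French bulldog 6 were named, and NRCAM described at length, after their values were seen. Results for some items that this rule picks are not reported here. Levels were not compared between genes by length, because exon lengths were not used here.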

Additional observations from a re-analysis of the deposited data

Results flagged for a closer look

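The highest or lowest library was examined in groups of 4 to 10 samples with Dixon's criterion, in 18 tests, of which chance is taken to pick about 1 in 20, and 3 results were picked out. SCN11A in boxer 3 was at 36.9 normalized CPM, far above the next comparison library at 13.2. SCN1A in boxer 4 was at 89.9 normalized CPM against 52.5 in the next boxer. SCN2A in boxer 4 was at 164 normalized CPM against 98.1 in the next boxer. Boxer 4 also had the highest summed neuron markers of the comparison group, at 1291 normalized CPM, and their part in its SCN1A and SCN2A levels was not tested.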

How the results depend on the processing

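In every setting run, 0 of the 8 subunits tested between the breeds and 0 of the 9 tested between boxers and Boston terriers were called. Between the breeds 1 gene was called in the comparison reported, and the number was 58 with DESeq2, 2 with limma-voom and with upper quartile scaling, 0 with at least 10 counts in every library (which left 2 subunits in the test), 0 with French bulldogs 2 and 8 summed, 0 against boxers alone, and 0 against either library series of the comparison group. It ran from 0 to 7 with each library left out in turn, the highest without French bulldog 9. Of the settings chosen after the data were seen, it was 76 for DESeq2 without French bulldog 6, 0 with 2 and 8 summed and 6 left out, and 1 without French bulldogs 2, 6 and 8, where the partner gene called was NRCAM. Same-numbered libraries did not pair (r of -0.50 to 0.21, 3 of 7 above 0.1, 2 of 7 best with their own number). The replicate block over the numbers 1 to 7 called 0 genes and the same libraries without the block 5.

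The sign of the log2 fold change of several subunits depended on the setting, and the cause was not tested. SCN1A was at -0.76 with limma-voom, -0.022 with 2 and 8 summed, -0.047 against boxers, -0.36 with the block and -0.0085 for the numbers 1 to 7 without it. SCN9A was at -0.35 with limma-voom, -0.35 against boxers, -0.23 against the series of 4 comparison libraries, -0.46 with the block and -0.39 without it. SCN4B was at -0.73 with limma-voom and -0.39 with the block. Against Boston terriers alone SCN2A was at 0.039, SCN8A at 0.44, SCN2B at 0.15 and SCN3B at 0.28, and against the series of 3 libraries SCN3A was at 0.31, SCN8A at 0.16 and SCN3B at 0.15. SCN8A was at 0.027 and SCN3B at 0.0040 with DESeq2 without French bulldog 6, SCN3B was at 0.10 with 2 and 8 summed and 6 left out, and without 2, 6 and 8 SCN2B was at 0.016 and SCN3B at 0.25. With 1 library left out the range was -0.16 to 0.21 for SCN1A, -0.30 to 0.085 for SCN8A and -0.45 to 0.31 for SCN9A. It was -0.48 to 0.30 for SCN3B and -0.24 to 0.90 for SCN4B. For boxers over Boston terriers it was -0.76 to 0.42 for SCN3A and -0.13 to 0.51 for SCN1A. In that comparison it was -0.047 to 2.14 for SCN3B and -0.66 to 2.67 for SCN4B.

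The number of relations to marker lists past the threshold was 16, and 7 in French bulldogs alone and 4 in the comparison group alone. By Pearson's r it was 14, and 6 without the 2 libraries farthest from the median. By r with all 18 libraries, it was 8 for the neuron and 7 for the astrocyte score among subunits other than SCN11A. It was 4 each for the proliferation and the macrophage and microglia scores, 3 for the progenitor and 1 for the mature oligodendrocyte score. For pairs it was 19, and 12 and 8 in the groups alone. It was 18 and 14 without French bulldog 11, which was tried only after the data had been seen. SCN4B had the lowest median count of the 9 subunits, 8.5 per library.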
